A study of Mus musculus with 6 samples.

Results

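Tight junction transcripts of the alveolar epithelium were followed in AT2 cells of young and old mice through 8 genes, chosen by name and not by their values: *Cldn3*, *Cldn7*, *Cldn18*, *Ocln*, *F11r*, *Tjp1*, *Tjp3* and *Cgn*. All 8 were among the 24224 genes of the count table, and all 8 were among the 14899 genes with enough counts to be tested. The cells came from the lungs of WT C57BL/6J mice (C57/6J in the labels) that had aged naturally to 3 months (3 m) or 24 months (24 m), with no other treatment and no transgene. They were sorted as CD45- CD31- CD326+ MHCII+ cells, that is, as epithelial cells that carry MHC class II and lack leukocyte and endothelial surface markers. There were 6 libraries, 3 per age, each made from the pooled cells of more than 1 mouse, so the spread between libraries is a spread between pools. The sources used here give neither the sex nor the number of the mice in a pool.

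Tight junctions seal the space between neighbouring epithelial cells and so keep airspace fluid apart from tissue fluid. Claudins form the paracellular barrier strands and set which ions and how much water pass, occludin and the junctional adhesion molecules span the membrane beside them, and the zonula occludens proteins and cingulin tie the strands to the actin cytoskeleton. In the alveolus, AT2 cells share these junctions with the flat AT1 cells, and claudin-3, claudin-4 and claudin-18 are known as the main claudins of this epithelium.

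None of the 8 genes passed the test between 3 m and 24 m, and the 8 transcripts together took up nearly the same part of the libraries at both ages. Their summed level was 2118 to 2252 CPM at 3 m and 2007 to 2147 CPM at 24 m, where CPM is the count of a gene scaled to the TMM-adjusted total of its library. *Cldn18* and *Cldn3* made up most of this sum, so it says little about the other 6 genes. *Tjp3* (ZO-3) was higher and *Cldn18* lower in every 24 m library than in every 3 m library, and the other 6 genes overlapped between the ages. Replicate 2 at 3 m held the lowest or the highest value of all 6 libraries for 8 of the 8 genes, as it did for 74.5% of all tested genes.

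The libraries held 28827930 to 32394985 counts, and surfactant protein C (*Sftpc*), the defining AT2 transcript, was at 51358 to 139127 CPM in every one of them. Replicate 2 at 3 m stood apart: it lay at 245 on the first principal component of all tested genes, which held 61.1% of the variance, against -78.2 to -17.2 for the other 5 libraries. It had no count for 693 genes with at least 20 counts in each other library, against 0 to 15 such genes elsewhere, and 5.62% of its counts were mitochondrial, against 2.29% to 3.60% elsewhere. Age differences of the 8 genes are therefore given with and without this library.

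*Cldn3*, which encodes a barrier-forming claudin, was at 633, 276 and 462 CPM in replicates 1, 2 and 3 at 3 m and at 573, 590.5 and 499 CPM at 24 m. The 24 m libraries lay within the range of the young ones, and the low value was that of replicate 2. The mean was 457 ± 179 CPM in the young and 554 ± 48.3 CPM in the old libraries (SD, n = 3 libraries per age). The log2 fold change from 3 m to 24 m was 0.28 ± 0.31 (SE), with a 95% interval of -0.44 to 0.997, and without replicate 2 at 3 m it was 0.02, with an interval of -0.39 to 0.43.

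*Cldn18*, which encodes the claudin whose splice forms mark lung and stomach epithelium, was at 1004, 1468 and 1005 CPM at 3 m and at 788, 860.3 and 912 CPM at 24 m. Every old library was below every young one, and replicates 1 and 3 at 3 m were almost equal. The mean went from 1159 ± 268 to 853 ± 62.5 CPM (SD, n = 3), and the log2 fold change of -0.44 ± 0.24 (SE) had a 95% interval of -0.996 to 0.11, so that no difference passed the test. The ages also did not overlap without replicate 2 at 3 m, at a log2 fold change of -0.23 with an interval of -0.59 to 0.12, and with libraries scaled by their totals alone they overlapped.

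*Cldn7*, whose product lies largely along the lateral membrane of epithelial cells, was at 132, 88.9 and 96.1 CPM at 3 m and at 109, 109 and 96.9 CPM at 24 m. Its ages overlapped and had almost the same mean, 106 ± 22.8 and 105 ± 6.95 CPM (SD, n = 3). The log2 fold change was -0.01 ± 0.24 (SE), with a 95% interval of -0.56 to 0.54. It was -0.11 without replicate 2 at 3 m, and its sign turned with the scaling of the libraries.

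**Figure D1:**
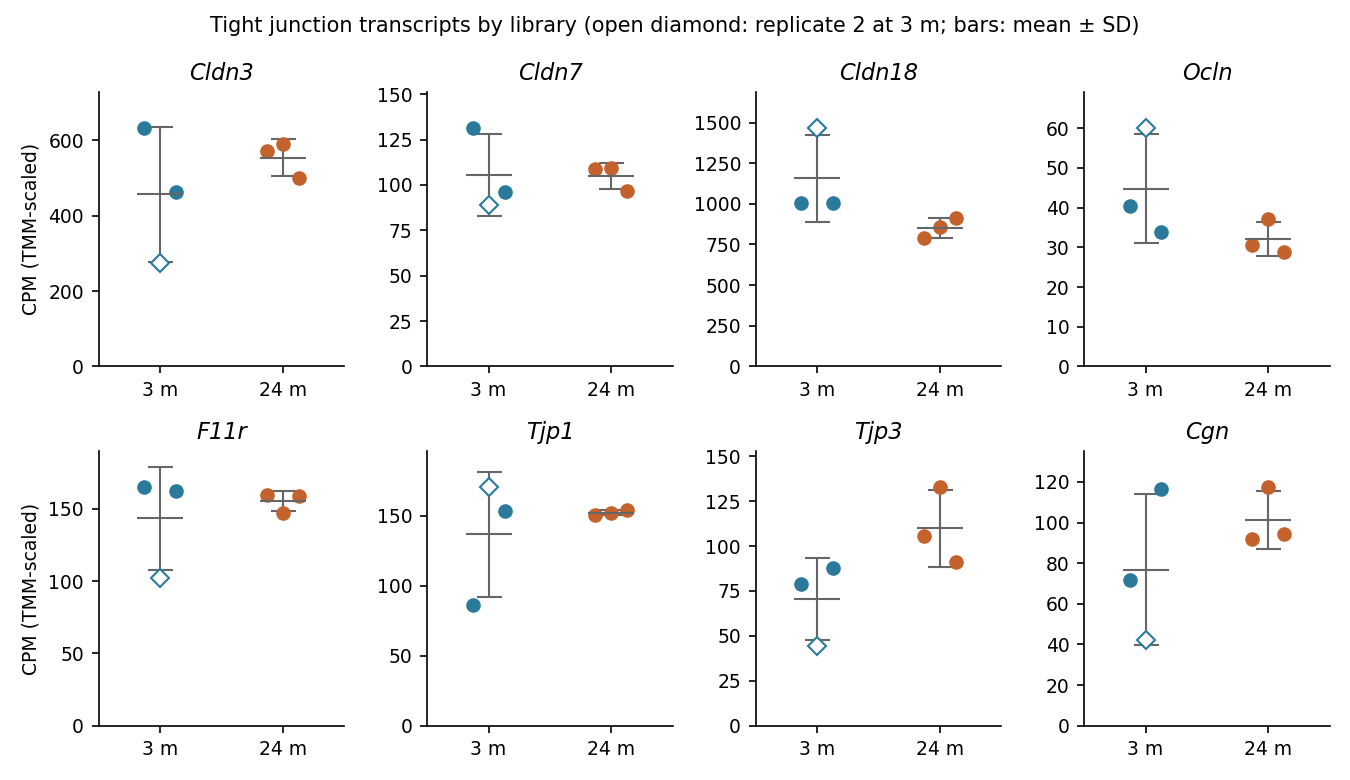
Levels of the 8 tight junction transcripts in each library, in CPM on the vertical axis of each panel, at 3 m and 24 m; points are libraries, the open diamond is replicate 2 at 3 m, and bars are the mean ± SD of 3 libraries. The 24 m points lie close together for most genes, while the open diamond is the lowest or the highest of the 6 points in every panel, and the ages do not overlap for *Cldn18* and *Tjp3*.

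The promoters of the most abundant claudins and of *Cgn* are shown because they differ in base composition and in matches to the motifs of known junction regulators. The sequences are RefSeq windows on GRCm38.p6, each with 250 bases before and 50 after an annotated start. The *Cldn3* window lies at chr5:134985964-134986263 on the + strand, those of the 2 *Cldn18* starts at chr9:99710014-99710313 and chr9:99717218-99717517 on the - strand, and that of *Cgn* at chr3:94786433-94786732 on the - strand. Capitals mark matches on either strand to 4 motifs, none of which overlap each other here. The motif of the grainyhead-like factors was AACCNGTT, and the E-box that Zeb and Snail repressors bind was searched as CACCTG. The GC box, known as a site of Sp factors, was searched with the letters GGGCGG, and for the TATA box the letters TATAAA were used.
Cldn3: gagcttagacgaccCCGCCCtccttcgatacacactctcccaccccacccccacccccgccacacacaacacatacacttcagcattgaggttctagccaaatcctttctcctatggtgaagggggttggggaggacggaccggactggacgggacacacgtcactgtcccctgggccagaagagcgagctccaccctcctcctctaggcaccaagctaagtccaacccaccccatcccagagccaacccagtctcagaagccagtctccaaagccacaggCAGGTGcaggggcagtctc
Cldn18 window 1: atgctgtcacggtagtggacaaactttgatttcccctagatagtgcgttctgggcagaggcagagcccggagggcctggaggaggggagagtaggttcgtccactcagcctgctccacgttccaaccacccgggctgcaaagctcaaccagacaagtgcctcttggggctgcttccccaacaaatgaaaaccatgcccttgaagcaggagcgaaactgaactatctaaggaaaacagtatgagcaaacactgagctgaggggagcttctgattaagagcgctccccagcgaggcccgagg
Cldn18 window 2: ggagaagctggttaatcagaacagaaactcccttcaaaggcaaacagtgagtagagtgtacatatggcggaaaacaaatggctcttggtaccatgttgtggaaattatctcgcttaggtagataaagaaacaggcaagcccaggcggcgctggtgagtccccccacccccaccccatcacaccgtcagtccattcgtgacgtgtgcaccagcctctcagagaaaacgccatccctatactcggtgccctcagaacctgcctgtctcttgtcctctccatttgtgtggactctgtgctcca
Cgn: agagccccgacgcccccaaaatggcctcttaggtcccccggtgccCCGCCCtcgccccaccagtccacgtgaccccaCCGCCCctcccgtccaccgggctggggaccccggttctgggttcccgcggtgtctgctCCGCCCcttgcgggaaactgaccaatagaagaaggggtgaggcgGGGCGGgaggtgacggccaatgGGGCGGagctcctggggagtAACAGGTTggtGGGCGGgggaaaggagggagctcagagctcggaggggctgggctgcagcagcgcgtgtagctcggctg

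The *Cgn* window held 1 grainyhead-like match, which 2.09% of the 32851 RefSeq windows of this length hold, and 6 GC boxes, which 35.7% hold at least once. The *Cldn3* window held 1 E-box, found in 20.2% of all windows, and 1 GC box, and neither *Cldn18* window held a match to any of the 4 motifs. The GC content was 70.3% in the *Cgn* window, 60.7% in that of *Cldn3*, and 55.7% and 52.0% in those of *Cldn18*, against a median of 52.7% over all windows. RefSeq gave 12 windows for the 8 genes, and the only grainyhead-like match among them was that of *Cgn*. E-boxes were not particular to *Cldn3*: windows of *Cldn7*, *F11r*, *Ocln* and *Tjp3* also held them, and those of *Cgn*, *Cldn18* and *Tjp1* did not. The counts are per gene and do not tell the 2 *Cldn18* starts apart, and a match is a description of the letters, not a bound site.

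Levels of different genes were compared per length, in FPKM (fragments per kilobase of gene, scaled to the library total), which the authors computed for the same table. The order by the mean log2 FPKM of the 6 libraries was *Cldn3*, *Cldn18*, *F11r*, *Cldn7*, *Tjp3*, *Tjp1*, *Cgn* and *Ocln*. *Cldn3* was at 403 ± 105 FPKM and *Cldn18* at 224 ± 43.4 FPKM (SD, n = 6 libraries), at ranks 58 and 123 of the table, and *Ocln* was the least abundant of the 8 at 9.003 ± 2.18 FPKM. *Cldn3* exceeded *Cldn18* in 5 of 6 libraries, by 0.81 on the log2 scale (exact sign-flip permutation test, two-sided p = 0.0625, adjusted p = 0.146 over 7 neighbour pairs).

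In every library *Cldn18* exceeded *F11r*, by 2.00 on the log2 scale, and *Cldn7* exceeded *Tjp3*, by 1.22 (p = 0.03125 for each by the exact permutation test, the smallest p that 6 libraries allow, adjusted p = 0.109). *F11r* at 56.3 ± 10.6 FPKM and *Cldn7* at 54.0 ± 7.27 FPKM differed by 0.05 on the log2 scale, less than the SD of 0.22 between libraries. *Tjp3* at 24.5 ± 8.55, *Tjp1* at 18.6 ± 4.01 and *Cgn* at 14.9 ± 5.28 FPKM followed each other by 0.35 and 0.37, each also less than the spread between libraries (SD 0.66 and 0.65). *Cgn* exceeded *Ocln* by 0.66 in the mean and in 5 of 6 libraries, with an SD of 0.90. The order was the same without replicate 2 at 3 m.

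*Cldn3*, *Cldn18* and *Cldn7* made up 95.4% to 97.9% of the summed FPKM of the 18 claudin genes in each library. *Cldn3* took 61.9%, 35.1% and 55.9% at 3 m and 64.8%, 63.5% and 59.6% at 24 m. *Cldn18* took 27.7%, 52.9% and 34.3% at 3 m and 25.2%, 26.1% and 30.8% at 24 m. *Cldn3* was thus the leading claudin in 5 libraries and *Cldn18* in replicate 2 at 3 m, while the share of *Cldn7* stayed between 7.32% and 8.31% in all 6.

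The ratio of *Cldn18* to *Cldn3* FPKM was 0.448, 1.505 and 0.614 at 3 m and 0.389, 0.412 and 0.516 at 24 m. Replicates 1 and 3 at 3 m lay near the old libraries, and replicate 2 was far above. On the log2 scale the mean ratio was -0.42 ± 0.91 at 3 m, and at 24 m it was -1.20 ± 0.22 (SD, n = 3), a difference of -0.78 (exact permutation test, two-sided p = 0.2, where 0.1 is the smallest p that 3 against 3 allows). Leaving out replicate 2 at 3 m, the difference was -0.27 (exact permutation test, two-sided p = 0.4).

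**Figure D2:**
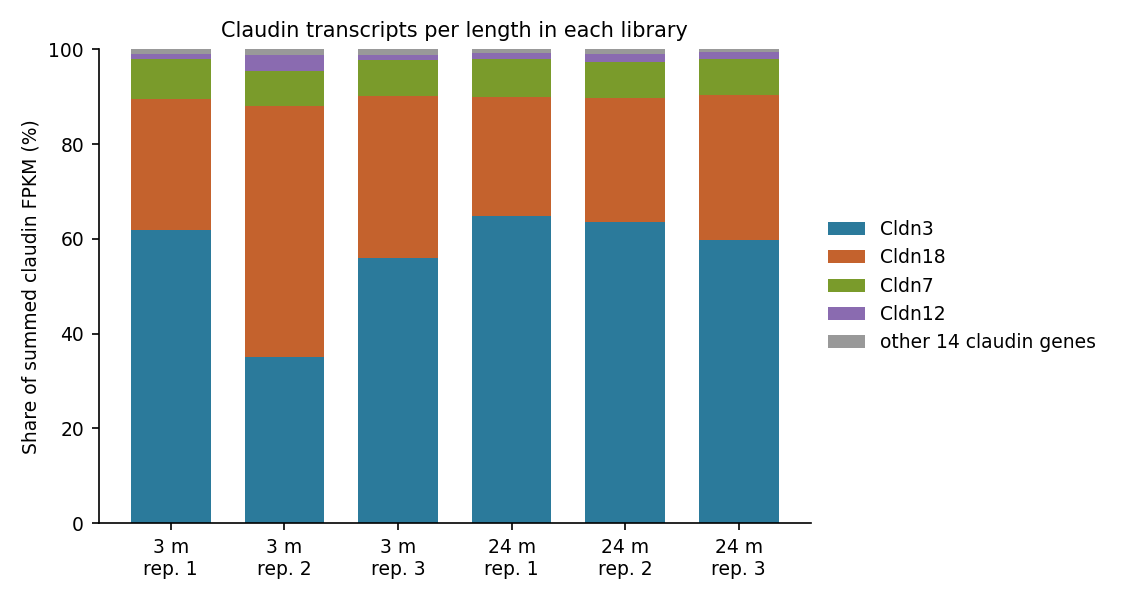
Share of each claudin in the summed claudin FPKM of each library, in percent on the vertical axis, with 1 stacked bar per library. *Cldn3* takes the largest share in 5 bars, and in replicate 2 at 3 m *Cldn18* does, at 52.9%.

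The remaining transmembrane genes were *Ocln* and *F11r*. *Ocln*, which encodes occludin, a MARVEL protein that regulates rather than builds the strands, was at 40.3, 60.1 and 33.8 CPM at 3 m and at 30.5, 37.0 and 28.9 CPM at 24 m. The ages overlapped, and again replicate 2 at 3 m was highest. The mean went from 44.7 ± 13.7 to 32.1 ± 4.32 CPM (SD, n = 3), at a log2 fold change of -0.48 ± 0.29 (SE) with a 95% interval of -1.14 to 0.18, and at -0.20 without replicate 2 at 3 m.

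*F11r*, which encodes JAM-A, an immunoglobulin-like adhesion molecule that recruits polarity proteins to the junction, was at 165, 102 and 163 CPM at 3 m and at 159.9, 147 and 159 CPM at 24 m. The low library was replicate 2 at 3 m, and the other 5 lay close together. The mean was 143 ± 35.5 CPM in the young and 155 ± 7.03 CPM in the old libraries (SD, n = 3), with a log2 fold change of 0.12 ± 0.26 (SE) and a 95% interval of -0.47 to 0.70. The sign turned without replicate 2 at 3 m, to -0.07 with an interval of -0.43 to 0.28, and every old library was then slightly below both young ones.

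Among the scaffolds, *Tjp3* encodes ZO-3, a PDZ protein of epithelial junctions, and was at 79.0, 44.6 and 88.0 CPM at 3 m and at 106, 133 and 91.0 CPM at 24 m. Every old library was above every young one, by a narrow gap between replicate 3 at 24 m and replicate 3 at 3 m. The mean went from 70.5 ± 22.9 to 109.8 ± 21.2 CPM (SD, n = 3), at a log2 fold change of 0.64 ± 0.31 (SE) and a 95% interval of -0.07 to 1.35. Its unadjusted p of 0.0712 from edgeR was the smallest of the 8. Leaving out replicate 2 at 3 m, the log2 fold change was 0.40, with an interval of -0.04 to 0.83, and the ages still did not overlap. With a correction for the GC content of transcripts it was 0.06, less than the 0.17 of *Tjp1* and the 0.14 of *Cgn*.

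*Tjp1*, which encodes ZO-1, the scaffold that binds claudins, occludin and actin, was at 86.1, 171 and 154 CPM at 3 m and at 151, 152 and 154 CPM at 24 m. Here replicate 1 at 3 m was the low library, and the 3 old libraries were nearly equal. The mean was 137 ± 44.7 CPM in the young and 152 ± 1.73 CPM in the old libraries (SD, n = 3). The log2 fold change was 0.16 ± 0.29 (SE), with a 95% interval of -0.50 to 0.81. Without replicate 2 at 3 m it was 0.35, and without replicate 1 at 3 m its sign turned, to -0.09.

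*Cgn* encodes cingulin, which links the scaffolds to actomyosin and microtubules. It was at 71.7, 42.4 and 116 CPM at 3 m and at 91.7, 117 and 94.4 CPM at 24 m, so that the ages overlapped and the highest young value was 2.75 times the lowest. The mean was 76.8 ± 37.3 CPM in the young and 101 ± 14.2 CPM in the old libraries (SD, n = 3). The log2 fold change was 0.40 ± 0.36 (SE), with a 95% interval of -0.43 to 1.22, and it was 0.11 without replicate 2 at 3 m.

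The ratio of *Tjp1* to *Tjp3* FPKM was 0.519, 1.82 and 0.829 at 3 m and 0.679, 0.544 and 0.805 at 24 m. ZO-3 transcripts exceeded ZO-1 transcripts per length in 5 libraries, and replicate 2 at 3 m was the exception. The ages differed by -0.47 on the log2 scale (exact permutation test, two-sided p = 0.6), and by 0.03 without replicate 2 at 3 m (exact permutation test, two-sided p = 0.9).

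Over the 8 genes, 0 were called by edgeR's quasi-likelihood test. A gene counted as called when its log2 fold change was beyond 1 in either direction with an adjusted p under 0.05, and edgeR called 0% of the 14899 genes. Of the 8, 0 had an unadjusted p under 0.05, where 5.86% of all tested genes did. The edgeR adjusted p of the 8 ranged from 0.828 to 0.992. DESeq2, which called 1.59% of genes as higher and 0.156% as lower at 24 m, called 0 of the 8, at adjusted p of 0.556 to 0.990, and limma-voom called 0. Ages that did not overlap were found for 1 of the 8 in the direction of higher at 24 m, *Tjp3*, and for 1 in the direction of lower, *Cldn18*, against 9.74% and 5.41% of all tested genes. Without replicate 2 at 3 m they were found for *Tjp3* as higher and for *Cldn18* and *F11r* as lower, against 14.4% and 11.8%.

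The median log2 fold change of the 8 was 0.14, beside 0.05 over all tested genes, with 5 genes above 0 and 3 below. Without replicate 2 at 3 m it was -0.03, beside 0.03, with 4 above and 4 below, and edgeR, which then called 0.506% of genes as higher and 0.0185% as lower, called 0 of the 8, at adjusted p of 0.537 to 0.994. With all libraries, the lowest limit of an interval among the 8 was -1.14, for *Ocln*, and the highest was 1.35, for *Tjp3*. With 3 libraries per age, differences within a gene's own interval were not excluded for that gene. For *Cldn7* this interval was narrower, from -0.56 to 0.54. In bulk samples such as these, fewer cells of a type and less RNA per cell cannot be told apart.

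**Figure D3:**
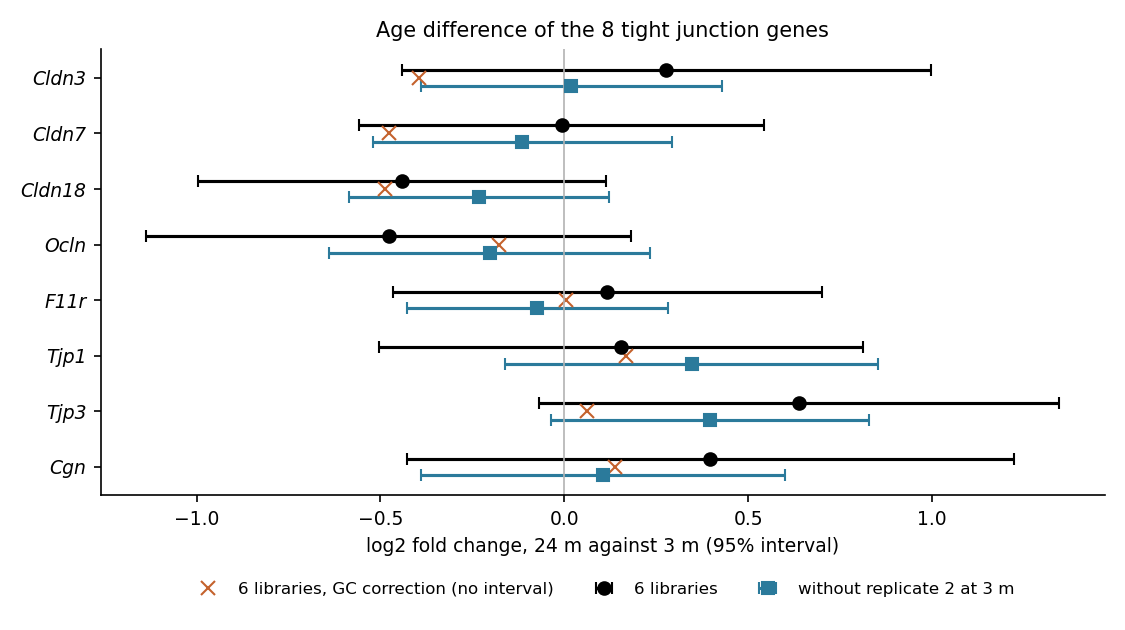
Log2 fold change from 3 m to 24 m of the 8 genes on the horizontal axis, from edgeR with all 6 libraries (black, with 95% interval), without replicate 2 at 3 m (blue, with 95% interval) and with all 6 libraries after a correction for GC content (crosses). Every interval drawn includes 0, and for *Cldn3* the cross lies at -0.40 while the black point lies at 0.28.

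The spread within the young age was compared with and without replicate 2. The highest old value exceeded the lowest by a factor of 1.02 for *Tjp1* to 1.46 for *Tjp3*, and among the young libraries the factor was 1.46 for *Cldn18* to 2.75 for *Cgn*, larger than in the old libraries for 8 of the 8 genes. Between replicates 1 and 3 at 3 m alone it was 1.001 for *Cldn18* to 1.78 for *Tjp1*, and it exceeded that of the old libraries for 4 of the 8, *Cldn3*, *Cldn7*, *Tjp1* and *Cgn*. Replicate 2 at 3 m was the lowest of the 6 libraries for *Cldn3*, *Cldn7*, *F11r*, *Tjp3* and *Cgn*, and the highest for *Cldn18*, *Ocln* and *Tjp1*. It was also the lowest library for 43.7% and the highest for 30.8% of all tested genes, so that its extreme place was common in the table.

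Which of the 8 were high and which were low in that library went with their base composition and, but for *Cgn*, with their length. GC content was taken from the longest annotated transcript of each gene, and its median over the tested genes was 49.6%. *Ocln* (42.0% GC), *Tjp1* (46.8%) and *Cldn18* (47.8%) lay below this median, and in replicate 2 at 3 m they exceeded the mean of replicates 1 and 3 by 0.70, 0.57 and 0.55 on the log2 scale. *F11r* (50.1%), *Cgn* (54.7%), *Cldn7* (57.0%), *Tjp3* (60.7%) and *Cldn3* (62.7%) lay above it, and they departed by -0.68, -1.11, -0.34, -0.90 and -0.97. In the authors' gene lengths, *Ocln*, *Tjp1* and *Cldn18* had 4222, 7811 and 4456 bases. *F11r*, *Cldn7*, *Tjp3* and *Cldn3* had 2663, 1948, 3714 and 1259, and *Cgn* had 6044. Across the 14899 tested genes, Spearman's rho between length and departure in this library was 0.28. The parts of GC content and length were not tested apart.

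The split by GC content ran through the other genes too. Of the tested genes above the median GC content, 76.8% were lower in replicate 2 at 3 m than in its age mates, and of those below it 62.9% were higher. Among the 73 other junction and regulator genes tested, these shares were 34 of 44 (77.3%) and 19 of 29 (65.5%). Across all 14852 tested genes with a GC value, Spearman's rho between GC content and departure was -0.46 in replicate 2 at 3 m and lay between -0.23 and 0.13 in the old libraries. It was 0.35 and 0.39 in replicates 1 and 3 at 3 m, whose departures are taken partly against replicate 2, and genes of a library share its depth and are not independent.

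**Figure D4:**
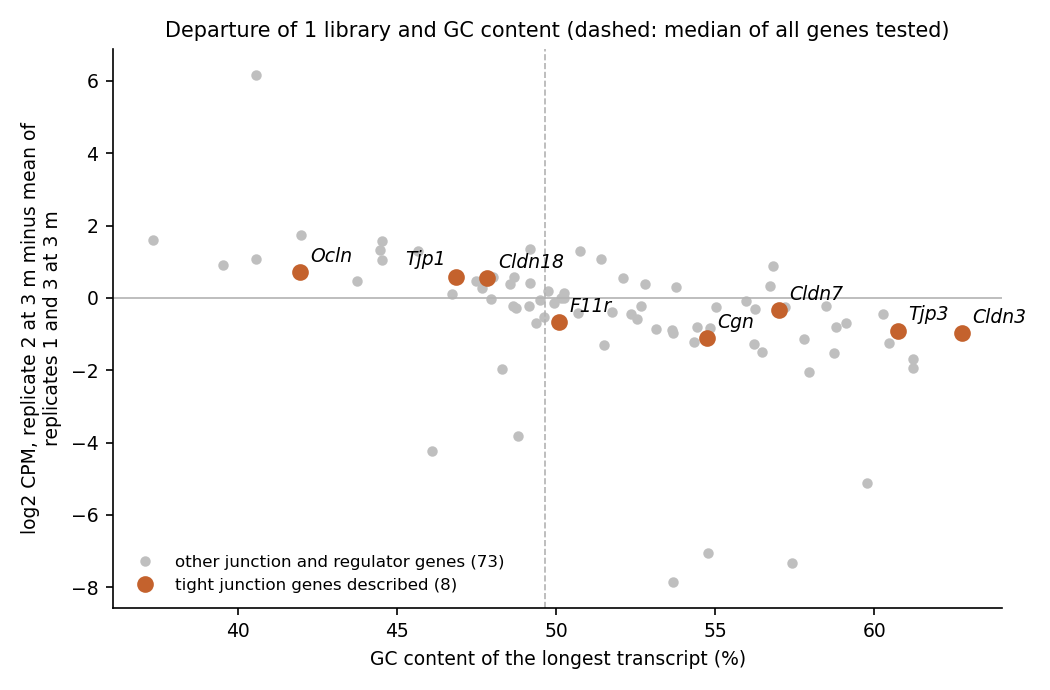
GC content of the longest transcript, in percent on the horizontal axis, against the log2 CPM of replicate 2 at 3 m minus the mean of replicates 1 and 3 at 3 m, for the 8 tight junction genes (large points) and 73 other junction and regulator genes (small points); the dashed line is the median GC content of all tested genes. The 3 tight junction genes left of the dashed line lie above 0 and the 5 right of it lie below 0.

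After a GC correction fitted within each library, *Ocln* and *Cgn* departed in replicate 2 at 3 m by -0.02 and -0.12, while *Cldn3* and *Cldn7* departed upwards, by 1.08 and 0.88. *Tjp3* turned from -0.90 to 0.83, so that for *Cldn3*, *Cldn7* and *Tjp3* replicate 2 went from the lowest to the highest library. The departure was smaller in size for 5 of the 8, *Tjp3* with its turned sign among them, and replicate 2 was an extreme library for 6 of the 8. With this correction the log2 fold change between the ages was -0.40 for *Cldn3*, -0.48 for *Cldn7*, -0.49 for *Cldn18* and 0.06 for *Tjp3*, and edgeR's adjusted p was at least 0.641 for each of the 8. *Tjp1*, the longest of the 8 at 7811 bases in the authors' gene lengths, departed in replicate 1 at 3 m by -0.91, in a library whose departures had a Spearman's rho of -0.35 with gene length over the 14899 tested genes. The part of GC content and of length in the age differences was otherwise not tested.

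Around the 8 genes, 64 further tight junction genes were listed, of which 56 were in the table and 43 were tested. EdgeR called 0 of the 43, limma-voom called 0, and 2 had an unadjusted p under 0.05 as higher and 1 as lower at 24 m, where 5.86% of all tested genes did in either direction. Their median log2 fold change was -0.11, beside 0.05 over all tested genes, with 20 above 0 and 23 below. Without replicate 2 at 3 m the median was -0.06 over the 50 of these genes then tested. With all libraries, 4 of the 43 had ages that did not overlap as higher and 3 as lower, against 9.74% and 5.41% of all tested genes. DESeq2, run without the filter on low counts, called 1 gene of these lists, *Jam2*, as higher. *Jam2*, a junctional adhesion molecule best known from endothelium, had no count in any 3 m library and was at 2.19, 1.37 and 0.0595 CPM at 24 m (adjusted p = 0.0283 from DESeq2, higher in 3 of 3 old libraries).

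Among the other claudin genes, leaving out the claudin domain genes *Cldnd1* and *Cldnd2*, *Cldn12* was the most abundant per length. It was at 39.6, 87.7 and 30.7 CPM at 3 m and at 39.1, 54.0 and 43.0 CPM at 24 m. *Cldn8*, a claudin known from the tight epithelium of the distal nephron, was at 5.82, 11.1 and 4.65 CPM at 3 m and at 0, 0.101 and 1.55 CPM at 24 m. Its ages did not overlap, and its log2 fold change of -3.69 ± 1.41 (SE) did not pass the test (unadjusted p = 0.0296, adjusted p = 0.828 from edgeR, 0.0909 from DESeq2). *Cldn2*, which forms a cation and water pore, was at 0.723, 0 and 0.253 CPM at 3 m and at 2.60, 5.36 and 1.34 CPM at 24 m, also without overlap (unadjusted p = 0.0517 from edgeR).

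*Cldn4*, named above as a claudin of this epithelium and known to rise in injured lung, was at 3.13, 5.31 and 2.63 CPM at 3 m and at 3.28, 2.21 and 1.40 CPM at 24 m. Its ages overlapped, and it was among the 14 claudin genes that together made up 0.563% to 1.32% of the summed claudin FPKM. *Cldn1*, *Cldn10*, *Cldn11*, *Cldn19* and *Cldnd2* had no count in any 3 m library. At 24 m they were near the floor, the highest value being 1.21 CPM, for *Cldn10* in replicate 2. Genes with any count numbered 13430 to 17645 in the 3 m libraries and 17531 to 21836 in the 24 m libraries. The list of other claudins, which includes the claudin domain genes, had 7 tested genes, *Cldnd1* among them. Their median log2 fold change was -0.32, and without replicate 2 at 3 m it was -0.17 over the 11 then tested.

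*Cxadr*, which encodes the coxsackie and adenovirus receptor, a relative of JAM-A, was at 139, 435 and 121 CPM at 3 m and at 117, 129 and 131 CPM at 24 m. All libraries but replicate 2 at 3 m lay close together. The tricellular genes *Lsr*, *Ildr1* and *Marveld2*, whose products seal the corners where 3 cells meet, were at 37.3, 30.1 and 26.2 CPM on average at 3 m and at 36.9, 27.6 and 24.2 CPM at 24 m. Their ages overlapped.

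Of the 14 other scaffold and plaque genes tested, *Amotl2*, an angiomotin that binds Yap and polarity proteins, had the smallest unadjusted p. It was at 122, 174 and 156 CPM at 3 m and at 309, 287 and 209 CPM at 24 m, with every old library above every young one. Its log2 fold change was 0.83 ± 0.26 (SE, unadjusted p = 0.0112, adjusted p = 0.683 from edgeR, 0.185 from DESeq2). Without replicate 2 at 3 m DESeq2 gave 0.94 at an adjusted p of 0.000686, short of a call on the limit of 1 for the log2 fold change. EdgeR without that library gave 0.95 at an adjusted p of 0.0941, which did not pass. *Cgnl1* (paracingulin), the paralog of *Cgn*, was at 183, 196 and 291 CPM at 3 m and at 294, 287 and 247 CPM at 24 m, with overlapping ages.

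Of the 14 polarity genes tested, *Pard6b*, a subunit of the PAR complex that JAM-A helps to recruit, was at 28.6, 39.2 and 35.8 CPM at 3 m and at 48.7, 71.1 and 42.4 CPM at 24 m. Its ages did not overlap, at a log2 fold change of 0.65 ± 0.28 (SE, unadjusted p = 0.0484, adjusted p = 0.828 from edgeR). The polarity kinase gene *Prkci* (aPKC iota) was at 148, 328 and 167 CPM at 3 m and at 171, 128 and 159.6 CPM at 24 m, with replicate 2 at 3 m again apart. The median log2 fold change was 0.07 over the scaffold genes and 0.10 over the polarity genes. Without replicate 2 at 3 m both medians turned sign, to -0.09 over the 15 scaffold genes then tested and -0.05 over the 14 polarity genes.

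Of 11 adherens junction genes and 9 desmosome genes tested, edgeR, DESeq2 and limma-voom called 0. Only 1 gene, *Perp*, had an unadjusted p under 0.05 by edgeR, where 5.86% of all tested genes did. *Cdh1* (E-cadherin) was at 854, 666 and 926 CPM at 3 m and at 785, 740.5 and 797 CPM at 24 m, with overlap. *Ctnnb1* (β-catenin), its cytoplasmic partner, was at 1416, 1469.7 and 1264 CPM at 3 m and at 1154, 1038 and 1158 CPM at 24 m, without overlap and at a log2 fold change of -0.31 ± 0.21 (SE). *Perp*, a desmosomal tetraspan protein, was at 48.2, 58.5 and 31.9 CPM at 3 m and at 26.6, 27.1 and 26.1 CPM at 24 m (log2 fold change -0.80 ± 0.28 (SE), unadjusted p = 0.0214, adjusted p = 0.815 from edgeR).

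Of the 10 tested genes for transcription and splicing regulators of epithelial junctions, edgeR, DESeq2 and limma-voom called 0, 1 had an unadjusted p under 0.05 by edgeR (5.86% of all tested genes did), and 3 had ages that did not overlap as higher at 24 m (9.74% of all tested genes did). The median log2 fold change of these 10 was 0.64, and without replicate 2 at 3 m it was 0.49. *Zeb1* encodes a repressor of E-cadherin and claudin genes that acts through E-boxes of the kind searched above. It was at 0.585, 0 and 0.601 CPM at 3 m and at 3.07, 5.196 and 4.02 CPM at 24 m (unadjusted p = 0.0284, adjusted p = 0.828 from edgeR, 0.0667 from DESeq2). *Ovol1*, which encodes a repressor of mesenchymal genes, was at 7.502, 0 and 7.85 CPM at 3 m and at 38.8, 31.4 and 13.1 CPM at 24 m.

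*Ovol1* had no count in the library that stood apart, and its log2 fold change of 2.44 ± 1.20 (SE) did not pass edgeR's test (unadjusted p = 0.0754). With no filter on low counts edgeR called 1 gene of this list, *Ovol1*. Run without replicate 2 at 3 m, DESeq2 called *Ovol1*, *Zeb1* and *Zeb2* as higher at 24 m, at adjusted p of 0.000426, 0.00345 and 0.0239. It also called *Cldn10* and *Jam2* among the junction genes, where it called 2.49% of all genes as higher and 0.103% as lower. EdgeR, run without the same library, called 0 of this list, at adjusted p of 0.0841 for *Ovol1* and 0.117 for *Zeb1*. With all 6 libraries the DESeq2 adjusted p of *Ovol1* was 0.665. The only young library with *Zeb2* counts was the 1 left out: *Zeb2* was at 0, 2.35 and 0 CPM at 3 m and at 0.0338, 3.15 and 0.357 CPM at 24 m, and with all 6 libraries its log2 fold change was 0.57 (adjusted p = 0.964 from DESeq2). *Grhl2*, the grainyhead-like activator of epithelial junction genes, named after its values were seen, was at 53.5, 55.8 and 57.4 CPM at 3 m and at 67.5, 71.8 and 55.3 CPM at 24 m, with overlap.

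Most of these 8 genes are also expressed by other lung epithelia, so the markers of other cell types are given beside them. All 8 airway secretory markers were detected, with a summed level of 287 to 758 CPM at 3 m and 657 to 1333 CPM at 24 m. Most of this was *Scgb1a1*, at 584, 712 and 215 CPM at 3 m and 601, 829 and 406 CPM at 24 m, with overlap. Of the 8, 5 were called by DESeq2 as higher with age, where 1.59% of all genes were. EdgeR called 0 of the 8 with all 6 libraries. Without replicate 2 at 3 m it called 5 as higher, where it called 0.506% of all genes as higher. The 10 AT1 markers summed to 1828 to 2349 CPM at 3 m and 2089 to 2381 CPM at 24 m, the 8 ciliated markers to 15.5 to 18.5 and 17.4 to 72.5 CPM, and 3 of 5 basal markers were in the table, at 0 to 2.68 and 1.31 to 4.12 CPM. The 10 AT2 markers summed to 138919 to 228449 CPM at 3 m and 155428 to 163863 CPM at 24 m.

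Transitional epithelial markers, 8 of 8 detected, summed to 348 to 838 CPM at 3 m and 869 to 1365 CPM at 24 m. The lowest of these sums was that of replicate 2 at 3 m. Of the 8 markers, 5 had a log2 fold change above 0 and 3 had one below. Their median was 0.89, and without replicate 2 at 3 m it was 0.48. DESeq2 called 1 of them as higher, where it called 1.59% of all genes, and edgeR called 0. Of 8 endothelial markers 7 were in the table, at 76.0 to 169 CPM at 3 m and 130 to 131 CPM at 24 m, mostly from *Esam*, with 3.86 to 5.37 and 3.63 to 16.4 CPM from the other 6, and *Cdh5* and *Tie1* had no count at 3 m. The 10 leukocyte markers summed to 267 to 333 and 269.6 to 419.9 CPM, mostly from *Lcp1*, and the other 9 summed to 3.74 to 9.56 CPM at 3 m and 17.3 to 76.3 CPM at 24 m. Among these were *Tyrobp*, *Itgb2*, *Cd3e* and *Ms4a1*, at 0 at 3 m. Of the 10, 3 were called by DESeq2 as higher, where 1.59% of all genes were. EdgeR called 0 of the 10 with all 6 libraries and 1 without replicate 2 at 3 m. The 7 mesenchymal markers summed to 3.17 to 14.4 and 7.38 to 27.7 CPM. Their part in the values of the 8 genes, of *Jam2* and of *Zeb1* was not tested.

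For each of the 8, the genes with the most similar course over the 6 libraries were sought among 8516 genes with a mean of at least 10 CPM, by the root mean square difference of centred log2 CPM. They were *Kat5* and *Rars* for *Cldn3*, *Get4* and *Get3* for *Cldn7*, *Uba2* and *Tbl2* for *Cldn18*, *Smc6* and *Gpd1l* for *Ocln*, *Mapk14* and *Camta2* for *F11r*, *Epg5* and *Cbl* for *Tjp1*, *Agbl5* and *Myo18a* for *Tjp3*, and *Plcb3* and *Tecpr1* for *Cgn*. None of the 16 was itself among the 8 or in the junction lists. The differences were 0.02 for *Mapk14* to 0.08 for *Tecpr1*, where the spread of the 8 genes over the libraries was 0.18 for *Cldn7* to 0.50 for *Cgn*. With 6 libraries, of which 1 stood apart, and so many candidates, such close courses are a description only.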

How the data were processed

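Whole-number counts per gene were deposited by the authors with no normalization, together with FPKM values, which the deposited table gives as the count per kilobase of gene length and scaled to the counts of the library. HISAT2, featureCounts, DESeq2 and the build GRCm39 are listed in the submitters' processing notes, and versions, annotation release, strand setting and treatment of multi-mapping reads are not given in the sources used here. How reads shared with overlapping genes or close copies were counted is therefore unknown.

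Counts were analysed in R 4.3.3 with edgeR 4.0.16 (TMM, filterByExpr, quasi-likelihood test, 14899 of 24224 genes, Benjamini-Hochberg), with DESeq2 1.42.0 and limma 3.58.1 (voom) as alternatives, and the code was tested on simulated data. FPKM was used to compare genes or their ratios within a library, with exact permutation tests, and in an alternative of the age test. The main tests used all 6 libraries. The 8 genes, the gene lists and the markers were chosen with earlier results of these data known. Picked beside the 8 were, in each further list, the 3 tested genes with the highest mean CPM and the 2 with the smallest p, and for each of the 8 the 2 most similar genes. Not all of the list genes are described, and those described do not span each list's range. Left out were the lowest log2 fold changes of the polarity and adherens junction lists, -0.93 for *Pard6g* and -0.80 for *Nectin3*. The highest of the desmosome list, 0.85 for *Evpl*, was also left out. *Jam2*, *Cldn1*, *Cldn4*, *Cldn10*, *Cldn11*, *Cldn19*, *Cldnd2*, *Zeb2* and *Grhl2* were added after their values were seen. GC content came from GENCODE vM21 on GRCm38, matched by gene identifier, for 14852 genes, and genome coordinates are those of RefSeq windows on GRCm38.p6. The alternatives were other size factors, filters, thresholds and units, replicate number as a block and each library left out, and, added after seeing the data, a GC correction and DESeq2 and non-overlap counts without replicate 2 at 3 m.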

Additional observations from a re-analysis of the deposited data

How the results depend on the processing

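The 8 genes were called under none of the 19 alternatives, and their log2 fold changes kept the sign in 141 values and turned it in 11. The sign of *Cldn7*, at -0.01, turned to 0.011 with limma-voom, to 0.012 with replicate number as a block, to 0.077 with library totals only, to 0.093 with limma on log2(FPKM + 1) and to 0.095 with log2(FPKM + 0.1). That of *Cldn3* turned to -0.40 with the GC correction, and that of *F11r* to -0.082 with DESeq2 without replicate 2 at 3 m. With each library left out in turn, the log2 fold change ranged from -0.11 to 0.19 for *Cldn7*, from -0.085 to 0.35 for *Tjp1* and from -0.074 to 0.23 for *F11r*, and the difference in the *Tjp1* to *Tjp3* ratio from -0.88 to 0.026. Ages did not overlap for 1 of the 8 with library totals only, in place of 2, and for 3 without replicate 2 at 3 m. The order per length held for 6 of 7 pairs at 3 m alone and for 6 to 7 with each library left out.

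Over all genes, edgeR called 0 (873 at an unadjusted p under 0.05), DESeq2 314, edgeR with no filter on low counts 207, limma on log2(FPKM + 0.1) 12, and DESeq2 without replicate 2 at 3 m 455. With each library left out edgeR called 0 to 85, the 85 without replicate 2 at 3 m. Same-numbered libraries did not deviate together (r = 0.01, -0.04 and -0.08), so the numbers were not taken as pairs, and the replicate block left the count of called genes at 0. The cause of these changes was not tested. With 3 pools per age, 1 of them apart, the intervals given show how precisely the age differences of these genes were known. Each of the 8 had at least 904 counts in every library.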
